A study of Mus musculus with 8 samples.

Results

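The genes described here are 10 members of a memory and effector programme of surface and cytoskeletal genes, namely the galectin genes Lgals1 and Lgals3, the S100 genes S100a4, S100a6, S100a10 and S100a11, the annexin genes Anxa1, Anxa2 and Anxa5, and the vimentin gene Vim. They were chosen by name, with earlier results of these data known, and found by their Ensembl identifiers, and all 10 were present among the 53465 identifiers in every library. Their expression was followed in regulatory T (Treg) cells of mice in which the chromatin remodeler gene Brg1 (Smarca4) had been deleted and could be switched on again. RNA was sequenced in 8 libraries, 1 per condition, from spleen and lymph node (LN) Treg cells of C57BL/6 mice aged 3 to 4 weeks. Per the study, the line with the reversible Brg1 allele was made on a mixed background. It was backcrossed to C57BL/6 for 3 generations before further breeding. Total Treg cells gave 6 libraries and activated Treg (aTreg) cells, sorted by surface markers of activation, gave 2 in a separate experiment.

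All groups carried R26CAG-FlpoER, a ubiquitously expressed recombinase that tamoxifen (TAM) activates. WT cells were BrgF/+ Foxp3YFP-Cre/+ and thus heterozygous for the floxed allele. In mosaic females, X inactivation leaves Treg cells of both kinds in the same animal, and the Brg1-sufficient (BrgF/ΔR Foxp3+/+) and Brg1-deleted (BrgF/ΔR Foxp3YFP-Cre) cells were sorted apart by the YFP that marks Cre. The rKO1 cells were BrgF/ΔR Foxp3YFP-Cre/YFP-Cre from inflamed mice, either untreated or taken on Day 7 after TAM, when they were sorted into GFP+ Brg1-deleted and GFP− Brg1-reexpressed cells. The reexpressed cells are given as BrgF/+ in the labels. Cre was driven by the Foxp3 locus, so that the deletion was limited to Treg cells, and ΔR is a gene trap that Flpo removes. By title, both aTreg libraries likewise came from TAM-treated rKO1 mice and were taken on Day 7. Of these, the one titled Brg1-deleted has a genotype given as F/F and values headed as WT. Both aTreg libraries are called by their titles below.

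Galectins are lectins that bind β-galactosides on cell surface glycoproteins, and galectin-1 and galectin-3 are secreted without a signal peptide and act on T cells from outside as well as inside the cell. S100 proteins are small EF-hand proteins, most of which bind calcium and then dock onto partners, among them annexins and non-muscle myosin. Annexins bind phospholipid membranes in the presence of calcium, and vimentin forms the intermediate filaments of lymphocytes. Many of these genes are low in naive T cells and high in effector, memory and effector-like Treg cells.

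Of the S100 genes, S100a4 (chr3:90603771-90606045) and S100a6 (chr3:90612882-90624181) lie 6.84 kb apart on the plus strand of GRCm38, and S100a11 (chr3:93520488-93526287) and S100a10 (chr3:93555080-93564643) lie 28.8 kb apart about 2.90 Mb further on. Anxa5 is on the same chromosome, 54.1 Mb from S100a4, whereas Lgals1 is on chromosome 15, Lgals3 on 14, Anxa1 on 19, Anxa2 on 9 and Vim on 2. The members thus lie on 6 chromosomes, 5 of them on chromosome 3. In the annotation, 51.7% of the exon bases of S100a4 are shared with Gm42674, a readthrough model that was listed at 0 reads in all 8 libraries. Whether reads in the shared part were counted was not tested, and the level of S100a4 may be affected. Anxa2 shares 2.63% of its exon bases with an antisense gene.

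Promoter sequence is shown for S100a4, S100a6 and S100a11, the members with the largest fold changes in mosaic females. The sequences are from RefSeq (GRCm38.p6), run 5′ to 3′ on the plus strand from 250 to 21 bases before the transcription start, and carry in capitals each match to 6 motifs searched on both strands: AP-1 (TGANTCA), CRE (TGACGTCA), RUNX (TGTGGT), T-box (TCACACCT), KLF/SP (GGGCGGGG) and the TATA box (TATAAA).
S100a4 (chr3:90603520-90603749): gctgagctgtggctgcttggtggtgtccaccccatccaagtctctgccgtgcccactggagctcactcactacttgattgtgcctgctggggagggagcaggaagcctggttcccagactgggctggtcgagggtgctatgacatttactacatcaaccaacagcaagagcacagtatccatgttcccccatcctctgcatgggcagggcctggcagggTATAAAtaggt
S100a6 (chr3:90612644-90612873): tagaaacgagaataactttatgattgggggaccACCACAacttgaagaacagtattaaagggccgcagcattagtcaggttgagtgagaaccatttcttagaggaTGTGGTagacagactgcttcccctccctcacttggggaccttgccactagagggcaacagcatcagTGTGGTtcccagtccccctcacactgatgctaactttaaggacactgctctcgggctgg
S100a11 (chr3:93520246-93520475): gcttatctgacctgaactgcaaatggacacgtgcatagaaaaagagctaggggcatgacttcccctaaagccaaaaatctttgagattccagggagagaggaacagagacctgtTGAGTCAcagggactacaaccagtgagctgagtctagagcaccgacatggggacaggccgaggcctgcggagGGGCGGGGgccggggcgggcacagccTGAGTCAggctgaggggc
The S100a4 window held a TATA box from 31 to 26 bases before the start and no other match. The S100a6 window held RUNX letters at 3 places, of which the nearest lay 79 to 74 bases before the start. The S100a11 window held AP-1 letters at 2 places and a KLF/SP match, with the nearer AP-1 match 38 to 32 bases before the start. Promoters were at hand for 8 of the 10 members, all but Lgals1 and S100a10. AP-1 letters were found in 2 of the 8 (S100a11 and Anxa2) and in 6.34% of 32817 promoter windows of the same length, RUNX letters in 1 and in 13.2%, and the TATA box in 3 (S100a4, Anxa1 and Vim) and in 11.8%. KLF/SP letters were in 2 of the 8 (S100a11 and Anxa2) and in 13.97% of all windows, and CRE and T-box letters in none of the 8 and in 1.28% and 1.03% of all. None of the 6 motifs searched was shared by the 3 printed S100 windows. A link between these letters and the fold changes was not tested.

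Libraries held from 16348729 to 24117209 reads on genes, so that 1 read equals 0.0411 to 0.0602 CPM (counts scaled to library size). Levels are the deposited FPKM values (fragments per kb of exon, scaled to library size) brought to 1 scale within each experiment by the trimmed mean of M-values (TMM). As each condition has 1 library, no test between conditions is possible, and the 95% exact intervals given with folds cover counting error only. All 7 Treg markers, Foxp3 and Il2ra among them, reached 5 CPM in every library. Foxp3 itself ranged from 72.9 CPM in WT cells to 534.7 CPM in mosaic Brg1-sufficient cells, whose gate was YFP−. The 4 Y-linked genes examined had no read in the WT and mosaic libraries and had reads in all rKO1 and aTreg libraries. Xist, the RNA of the inactive X, was at 0.521 CPM in untreated rKO1 cells and between 45.3 and 163.8 CPM in the other total Treg libraries, so that the untreated library held Y-linked but almost no Xist reads and the TAM-treated ones held both. The labelled rKO1 genotype gives the YFP-Cre allele on both copies of the X-linked Foxp3 gene. The untreated library goes against this genotype, and the Y-linked reads of the TAM-treated ones go against it for part of their cells. Smarca4, whose gene trap leaves upstream exons transcribed, was 1.64-fold (95% interval 1.52 to 1.77) higher in mosaic Brg1-sufficient than deleted cells and 1.61-fold (1.46 to 1.78) higher in reexpressed than deleted rKO1 cells. Between the aTreg libraries it was 0.835-fold (0.770 to 0.904) in the one labelled Brg1-reexpressed, opposite in direction to that label.

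The 10 genes together took 0.367% of the reads in WT, 0.444% in mosaic Brg1-sufficient, 0.189% in mosaic Brg1-deleted, 0.660% in untreated rKO1, 0.616% in Brg1-deleted rKO1 after TAM and 1.70% in Brg1-reexpressed rKO1 cells. Reexpressed cells thus stood apart from the other 5 total Treg libraries, and mosaic Brg1-deleted cells were lowest. The aTreg libraries labelled Brg1-deleted and Brg1-reexpressed spent 0.215% and 0.416% of their reads on them. S100a6, S100a10 and Lgals1 alone made up between 55.8% and 75.8% of these reads in the 8 libraries. Since each library is a bulk sample, more cells with a transcript and more transcript per cell cannot be told apart here or below.

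**Figure D1:**
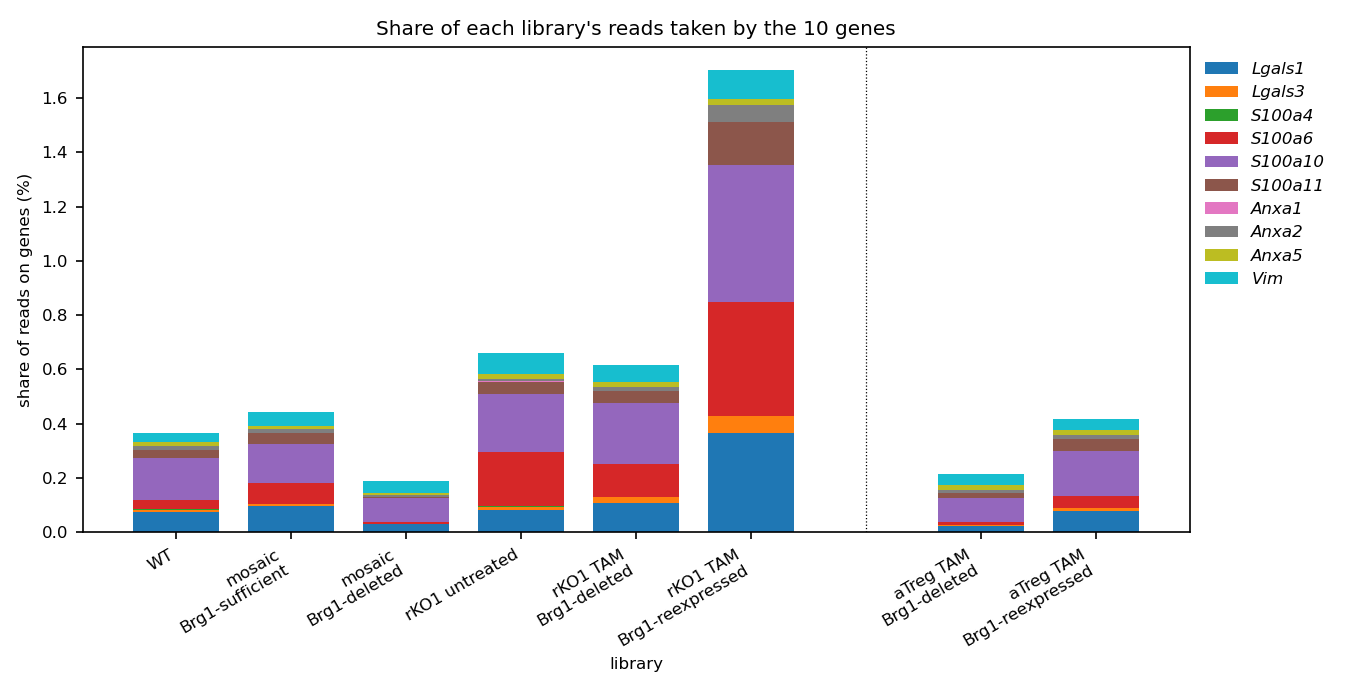
Share of each library's reads on genes (%) taken by the 10 genes, stacked by gene, for 6 total Treg and, right of the dotted line, 2 aTreg libraries (1 library per bar). The Brg1-reexpressed rKO1 bar reaches 1.70%, and the next highest, untreated rKO1, 0.660%.

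Lgals1, which encodes galectin-1, a lectin that Treg cells release and that binds CD45, CD43 and CD7 on other T cells, had a level of 966 FPKM in WT, 1310 in mosaic Brg1-sufficient, 379 in mosaic Brg1-deleted, 865 in untreated rKO1, 1223 in Brg1-deleted rKO1 after TAM and 5269 in Brg1-reexpressed rKO1 cells. The reexpressed cells were 4.02-fold above the next library, and the mosaic Brg1-deleted cells were lowest. Lgals3 encodes galectin-3, which crosslinks N-glycans branched by Mgat5, and its levels in the same order were 57.7, 36.7, 4.77, 63.9, 105 and 391 FPKM. By these values it had the widest range of the 10 genes, 81.9-fold between mosaic Brg1-deleted and reexpressed cells. The range of S100a4, 59.8-fold, rests on 8 reads in its lowest library, so the order of these ranges is uncertain.

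S100a6, known as calcyclin, had levels of 273 FPKM in WT, 619 in mosaic Brg1-sufficient, 56.6 in mosaic Brg1-deleted, 1258 in untreated rKO1, 810 in Brg1-deleted rKO1 after TAM and 3536 in reexpressed cells. All 3 rKO1 libraries were above the 3 from WT and mosaic mice. S100a11, the partner of annexin A1, had 663, 837, 69.97, 770, 761 and 3545 FPKM in the same order, so that 4 libraries lay close together, 1 far below and 1 far above. S100a10, which forms a complex with annexin A2 at the plasma membrane, was the most abundant S100 gene of the 4 in all 6 libraries, with 1314, 1303, 698, 1494, 1669 and 4813 FPKM. S100a4, which binds the heavy chain of non-muscle myosin, was measured at low levels of 6.29, 8.14, 0.562, 2.41, 4.84 and 33.6 FPKM. It passed 5 CPM only in reexpressed cells, and its levels may be affected by the exon bases shared with Gm42674.

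Anxa2, a membrane and actin binding annexin that also holds plasminogen at the cell surface, had levels of 42.5 FPKM in WT, 44.6 in mosaic Brg1-sufficient, 21.4 in mosaic Brg1-deleted, 18.0 in untreated rKO1, 40.8 in Brg1-deleted rKO1 after TAM and 191 in reexpressed cells. It was the member for which untreated rKO1 and not mosaic Brg1-deleted cells were lowest, by a factor of 1.19. Anxa5, which binds phosphatidylserine, had the narrowest range, 2.45-fold, with 83.8, 68.9, 56.3, 85.6, 93.5 and 138 FPKM. Anxa1, a ligand of formyl peptide receptors that glucocorticoids induce, was at 0.946, 1.66, 0.299, 0.320, 1.75 and 2.46 FPKM, from between 16 and 108 reads per library, and its order is set by few reads. Vim had 73.5, 116, 88.2, 142, 117 and 260 FPKM and was the member for which WT cells were lowest.

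All 10 genes had their highest level among total Treg cells in the Brg1-reexpressed rKO1 library, also when libraries were scaled by total count alone. For 8 of them the lowest was the mosaic Brg1-deleted library. With no second library of a condition, neighbours in these orders have no spread to be set against. As a yardstick, log2 differences were set against the 95th percentile of absolute differences among the 500 genes nearest in expression, in WT against mosaic Brg1-sufficient cells or in untreated against TAM-treated Brg1-deleted rKO1 cells, whichever was wider. Both pairs share a Brg1 state but come from different mice. The yardstick was 0.951 for abundant members such as Lgals1 and wider for rare ones. Smarca4 stayed within it in the mosaic pair (log2 0.71 against 1.07) and in the rKO1 pair after TAM (0.69 against 1.13). It also did so between the aTreg libraries (-0.26 against 1.20). Whether the aTreg labels are correct was not tested.

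**Figure D2:**
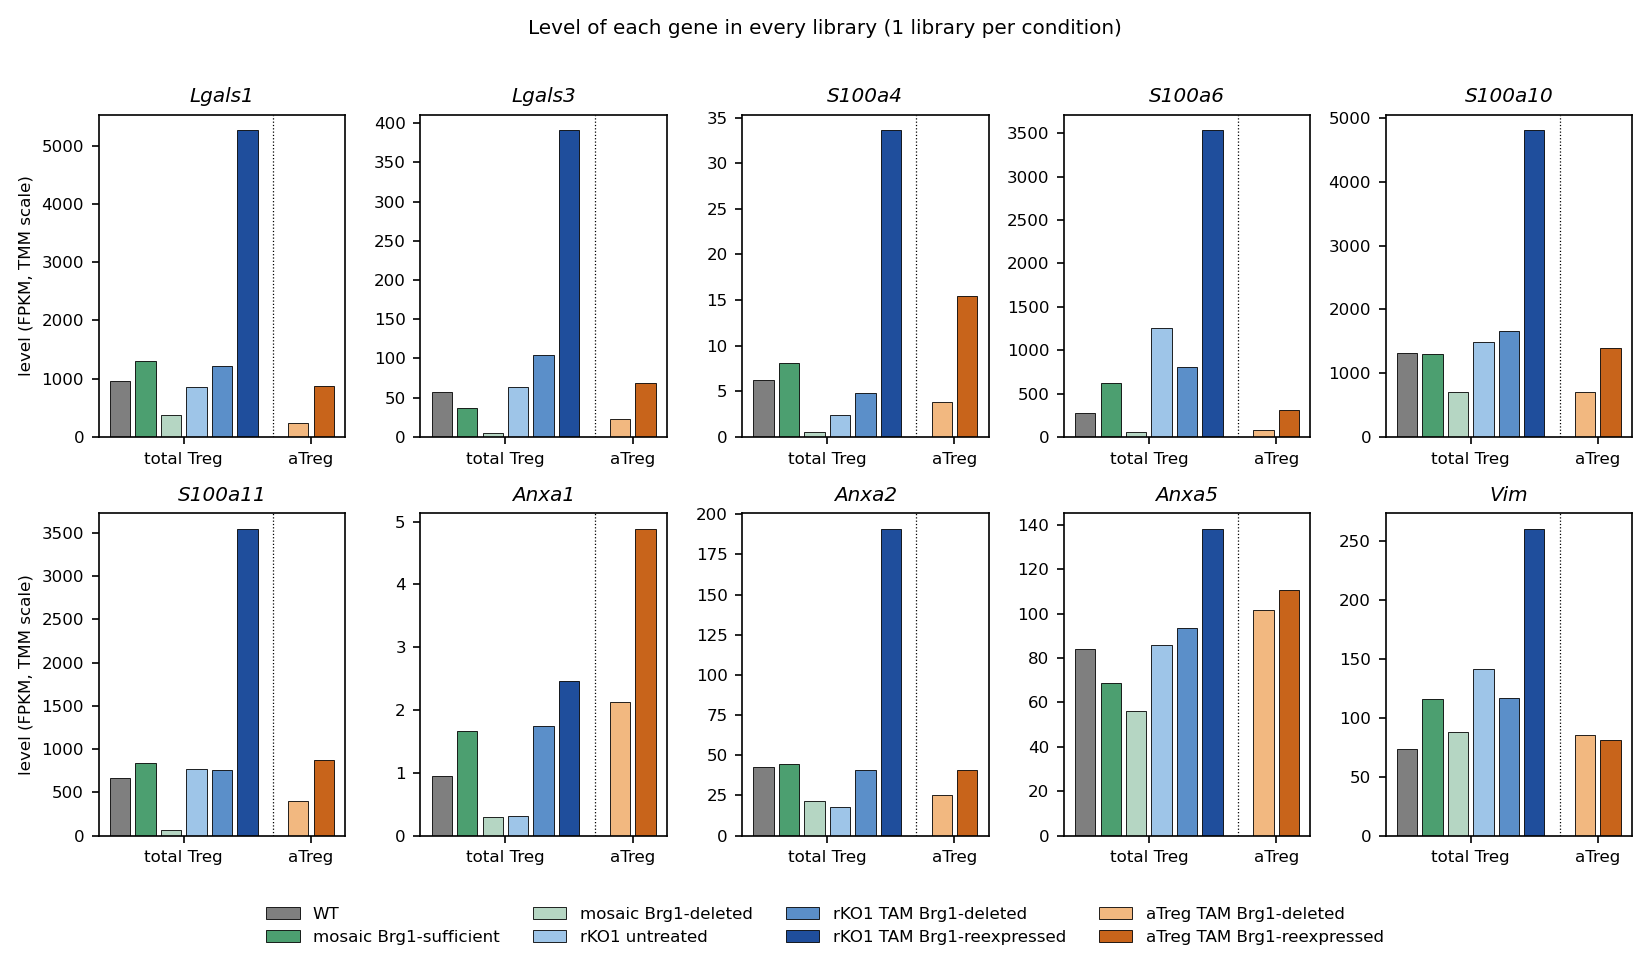
Level of each of the 10 genes (FPKM on the TMM scale, linear axes from 0) in each of 6 total Treg libraries and, right of the dotted line, 2 aTreg libraries, which were scaled separately and cannot be compared with the others in height; each bar is 1 library. The Brg1-reexpressed rKO1 bar is the tallest total Treg bar in all 10 panels. Of the aTreg bars, only that of Vim is not taller in the library labelled Brg1-reexpressed, at 81.4 against 85.8 FPKM.

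In healthy mosaic females, the galectin and S100 genes were lower in Brg1-deleted than in Brg1-sufficient Treg cells of the same animals. S100a11 was 11.96-fold (95% interval 11.2 to 12.8), S100a6 10.9-fold (10.4 to 11.5), Lgals3 7.69-fold (6.66 to 8.91) and Lgals1 3.46-fold (3.37 to 3.55) higher with Brg1. Anxa2 was 2.09-fold (1.97 to 2.21) higher. These 5 of 10 members were at least 2-fold higher and none was 2-fold lower, where 4.01% and 2.08% of the 10063 genes that reached 5 CPM in either library did so. The median log2 difference of the 10 was 2.13, and that of all tested genes was 0.03. Over the 8 members that reached 5 CPM, the filter set for all genes, the median was 1.43. With libraries scaled by total count alone Anxa2 dropped below 2-fold, leaving 4 members higher, and the split of all calls went from 404 higher and 209 lower to 319 and 303.

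S100a4 and Anxa1 did not reach 5 CPM in this pair. S100a4 had 101 reads with Brg1 and 8 without, a 14.5-fold difference with an interval from 7.07 to 34.5, and Anxa1 had 92 and 19 reads, 5.55-fold (3.36 to 9.64). Both were higher with Brg1 like the others, with wide intervals. S100a10 was 1.87-fold (1.83 to 1.90) higher and stayed within 2-fold, and Vim and Anxa5 differed by 1.31-fold (1.28 to 1.35) and 1.22-fold (1.16 to 1.29). The S100a10 transcript was thus kept at 698 FPKM in the deleted cells, whereas that of its neighbour S100a11 was at 69.97 FPKM there. The log2 differences of Lgals1, Lgals3, S100a4, S100a6, S100a11 and Anxa1 exceeded the yardstick and those of S100a10, Anxa2, Anxa5 and Vim did not. Summed myeloid markers were 871 CPM with and 719 CPM without Brg1, and 1 of the 8 that reached 5 CPM (Cybb) was 2-fold higher with Brg1; their part in the result was not tested.

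In the inflamed rKO1 mice on Day 7 after TAM, 8 of the 10 genes were at least 2-fold higher in Brg1-reexpressed than in Brg1-deleted cells and none was lower, against 7.15% and 5.65% of 10306 genes tested. S100a4 was 6.94-fold (5.17 to 9.49), Anxa2 4.67-fold (4.49 to 4.87), S100a11 4.66-fold (4.54 to 4.78), S100a6 4.37-fold (4.30 to 4.44), Lgals1 4.31-fold (4.24 to 4.38) and Lgals3 3.72-fold (3.59 to 3.87) higher. S100a10 was 2.88-fold (2.85 to 2.92) and Vim 2.22-fold (2.17 to 2.28) higher. Anxa5 was 1.48-fold (1.41 to 1.55) and Anxa1 1.41-fold (1.05 to 1.89) higher, both under 2-fold and within the yardstick. The 8 genes that passed 2-fold all exceeded the yardstick. S100a4 reached 5 CPM only in the reexpressed library, at 19.6 against 2.83 CPM.

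The median log2 difference of the 10 was 2.002, and that of all genes 0.06. With libraries scaled by total count alone the median of all genes moved to -0.29 and the split of all calls from 737 higher and 582 lower to 391 and 1214, while the median of the 10 was 1.65 and 7 stayed at least 2-fold higher, Vim dropping to a log2 value of 0.80. Anxa2 and its partner gene S100a10 were among those with a larger fold here than in mosaic females, and Lgals3, S100a6 and S100a11 among those with a smaller one. The Brg1-deleted rKO1 cells had higher levels than the mosaic Brg1-deleted cells for members of both kinds. Whether the folds differ between the 2 kinds of mice was not tested. Summed myeloid markers were 956 CPM in reexpressed and 1028 CPM in deleted cells, and of the 12 that reached 5 CPM none was 2-fold higher and 5 were 2-fold lower (Lyz2, Adgre1, Cd68, Tyrobp and Clec7a). Of the rest, Cst3 was higher by a log2 value of 0.57, and the part of these cells in the result was not tested.

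In aTreg cells, Lgals1 was at 241 FPKM in the library labelled Brg1-deleted and 868 in that labelled Brg1-reexpressed, Lgals3 at 23.2 and 68.9, S100a4 at 3.87 and 15.5, S100a6 at 81.4 and 310, S100a11 at 399 and 874, and Anxa1 at 2.14 and 4.89 FPKM. These 6 of 10 genes were at least 2-fold higher in the library labelled Brg1-reexpressed and none was 2-fold lower, where 4.4% and 2.04% of 10035 genes were. S100a4 reached 5 CPM only in the library labelled Brg1-reexpressed, at 9.04 against 2.26 CPM. The folds were 4.00 (2.83 to 5.79) for S100a4, 3.81 (3.62 to 4.00) for S100a6, 3.60 (3.47 to 3.73) for Lgals1, 2.97 (2.74 to 3.22) for Lgals3, 2.29 (1.83 to 2.88) for Anxa1 and 2.19 (2.10 to 2.28) for S100a11. Of these, Anxa1 stayed within the yardstick, which was taken from total Treg libraries, at a log2 value of 1.19 against 1.38. The others exceeded it.

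S100a10, at 706 and 1389 FPKM, was 1.97-fold (1.93 to 2.01) higher and fell just short of 2-fold. Anxa2, at 25.4 and 40.6 FPKM, was 1.59-fold (1.502 to 1.69) higher, and Anxa5, at 102 and 110, 1.09-fold (1.04 to 1.14). Vim was 0.949-fold (0.919 to 0.980), and thus did not rise with the S100 and galectin genes in cells sorted for an activated surface. The median log2 difference was 1.16 for the 10 genes and -0.06 for all genes. The aTreg library labelled Brg1-reexpressed stood apart in its erythroid transcripts, which summed to 22862 CPM against 1174 CPM in the other aTreg library and 153 to 628 CPM in the total Treg libraries. With the 6 erythroid genes left out of the scaling, a setting added after these values were seen, 6 members were again at least 2-fold higher. Summed myeloid markers were 2245 and 1764 CPM, and of 13 at 5 CPM, 5 were 2-fold higher in the library labelled Brg1-reexpressed (Adgre1, Fcgr3, Tyrobp, C1qc and Clec7a) and 1 lower (Cybb). Neutrophil markers summed to 60.2 and 67.1 CPM. The sexes were also mixed unequally, with Xist higher by a log2 value of 1.79 and all 4 Y-linked genes 2-fold lower in the library labelled Brg1-reexpressed, Kdm5d by -2.59. The part of these other cells and of sex in the aTreg result was not tested.

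In both total Treg pairs, in which Smarca4 followed the labels in direction, 5 of 8 members tested in both were at least 2-fold higher with Brg1. These were Lgals1, Lgals3, S100a6, S100a11 and Anxa2, and 149 of 9619 genes (1.55%) were likewise higher in both. Lgals1, Lgals3, S100a6 and S100a11 were also at least 2-fold higher in the aTreg library labelled Brg1-reexpressed, in which Smarca4 was lower but within the yardstick. That makes 4 of the 8 members tested in all 3 pairs, against 39 of 9222 genes (0.423%). The other members differed between pairs, S100a4 passing 2-fold in total rKO1 and aTreg cells, S100a10 and Vim in total rKO1 cells, Anxa1 in aTreg cells and Anxa5 in none.

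**Figure D3:**
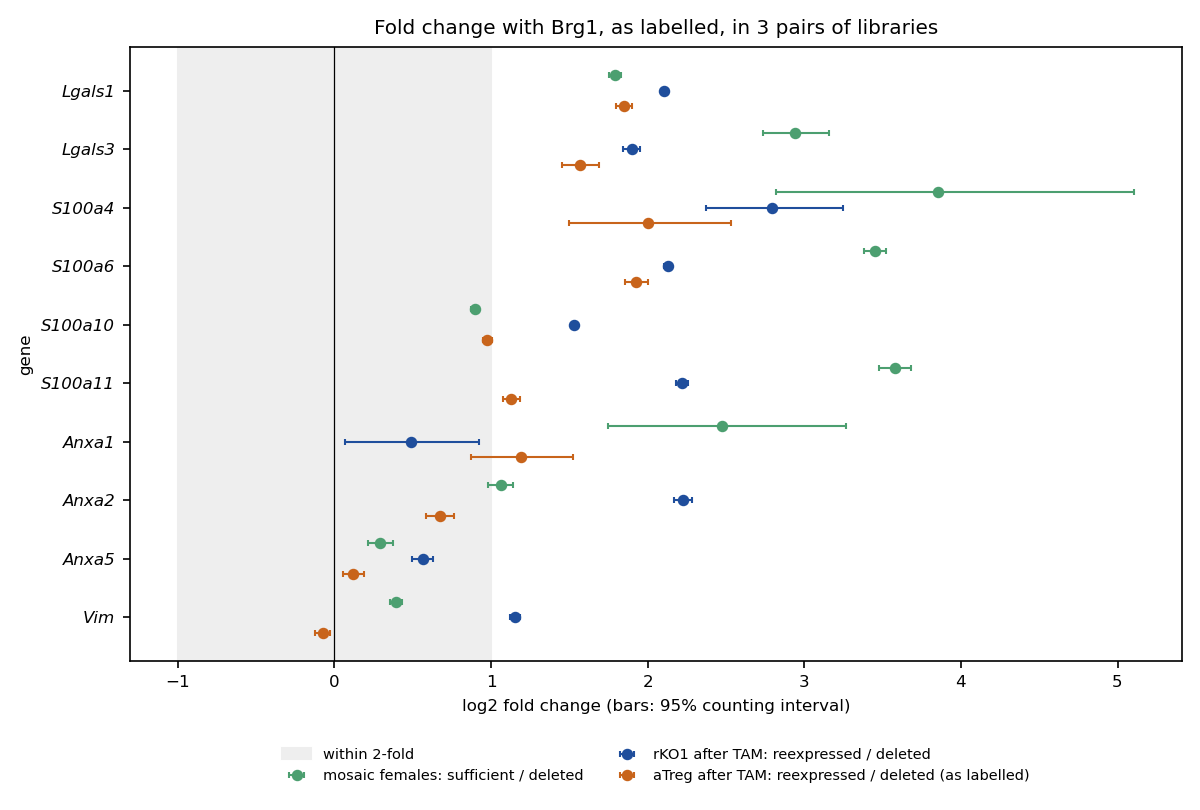
Log2 fold change of each gene in the direction of Brg1, as labelled, in 3 pairs of libraries (points) with 95% exact counting intervals (bars), the grey band marking less than 2-fold. In the aTreg pair Smarca4 was opposite in direction to the labels, within the yardstick. Lgals1, Lgals3, S100a6 and S100a11 lie right of the band in all 3 pairs, and Anxa5 lies inside it in all 3.

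Cells of the same Brg1 state from different mice also differed. Untreated rKO1 and mosaic Brg1-deleted Treg cells both lack Brg1, yet S100a6 was 22.2-fold (21.2 to 23.3), Lgals3 13.4-fold (11.6 to 15.5) and S100a11 10.998-fold (10.3 to 11.8) higher in the rKO1 cells. Lgals1 was 2.28-fold (2.22 to 2.35) and S100a10 2.14-fold (2.10 to 2.18) higher. These 5 members were 2-fold higher and none lower, against 8.17% and 6.98% of 10410 genes. Total count scaling moved the split of all calls from 851 higher and 727 lower to 1156 and 471 and left the count of members at 5. Vim was 1.61-fold (1.57 to 1.65), Anxa5 1.52-fold (1.44 to 1.61) and Anxa2 0.842-fold (0.784 to 0.904) the mosaic level. Age range and tissue were the same in both, whereas inflammation, sex of the mice and the myeloid markers, of which 9 of 13 were 2-fold higher in rKO1 cells, were not, and their parts cannot be told apart.

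Against Brg1-sufficient cells, the untreated rKO1 library showed no common shift. Compared with WT, S100a6 was 4.61-fold (4.48 to 4.73) higher and Anxa2 2.36-fold (2.21 to 2.53) lower, 1 member in each direction where 8.6% of 10467 genes were higher and 7.14% lower. With total count scaling the split of all calls moved from 900 higher and 747 lower to 1544 and 477, and 2 members were higher and none lower. Compared with mosaic Brg1-sufficient cells, S100a6 was 2.03-fold (1.99 to 2.07) higher and Anxa2 2.48-fold (2.32 to 2.64) lower, again 1 each way against 8.19% and 9.15% of 10447 genes. Here the split moved from 856 higher and 956 lower to 1503 and 478, and again 2 members were higher and none lower. The median log2 difference of the 10 was 0.09 and 0.04 in these comparisons, which share the untreated library. Lgals1, S100a10 and S100a11 in Brg1-deleted cells of sick mice thus lay within 2-fold of both Brg1-sufficient controls, S100a11 at 0.920-fold (0.892 to 0.949) the mosaic level. S100a4 and Anxa1, under 5 CPM and not counted, were at 0.296-fold (0.186 to 0.456) and 0.193-fold (0.106 to 0.330) the mosaic level. Against WT they were at 0.383-fold and 0.338-fold. Of 13 myeloid markers, 9 were 2-fold higher and 1 lower than in mosaic Brg1-sufficient cells, and 3 higher and 2 lower than in WT cells. Xist was lower and all 4 Y-linked genes higher than in both controls, and inflammation differed too. Their part in the result was not tested.

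Among cells that stayed Brg1-deleted, 1 of the 8 members at 5 CPM passed 2-fold after TAM. Between Brg1-deleted rKO1 cells after TAM and untreated rKO1 cells, this was Anxa2, 2.27-fold (2.12 to 2.43) higher after TAM and beyond the yardstick. Of 10299 genes, 2.16% were higher and 2.26% lower (222 and 233 genes, or 181 and 307 with total count scaling). Lgals3 was 1.64-fold (1.56 to 1.73) and Lgals1 1.42-fold (1.38 to 1.45) higher, S100a6 1.55-fold (1.53 to 1.58) lower, and S100a11 0.989-fold (0.957 to 1.02) its untreated level. Anxa1, under 5 CPM in both, had 84 reads after and 16 before TAM. The libraries also differed in sex, Xist being higher after TAM by a log2 value of 6.61 and Kdm5d and Uty 2-fold lower, and Ncr1, a marker of NK cells, was higher by 4.19. TAM, time, sex and mouse cannot be told apart.

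Reexpressed rKO1 cells exceeded both Brg1-sufficient controls. Against mosaic Brg1-sufficient cells 9 of the 10 genes were at least 2-fold higher (10.8% of 10319 genes, with 11% lower), led by Lgals3 at 10.7-fold (10.1 to 11.3), S100a6 at 5.71-fold (5.62 to 5.80) and Anxa2 at 4.28-fold (4.12 to 4.45), and the exception was Anxa1 at 1.48-fold (1.11 to 1.98). Anxa5 was at the threshold, with 2.004-fold (1.91 to 2.11). Against WT cells 9 were higher (9.73% of 10300 genes, with 7.45% lower), led by S100a6 at 12.95-fold (12.6 to 13.3), Lgals3 at 6.78-fold (6.45 to 7.13) and Lgals1 at 5.45-fold (5.35 to 5.56), and the exception was Anxa5 at 1.65-fold (1.57 to 1.73). No member was lower in either. S100a4 and Anxa1 were under 5 CPM in both controls, at 4.76 and 4.33 CPM in mosaic Brg1-sufficient cells. In WT cells they were at 3.67 and 2.47 CPM. Total count scaling moved the split of all calls against WT from 1002 higher and 767 lower to 830 and 953. The median log2 difference of the 10 was 2.03 and 2.29. Of the myeloid markers, Fcgr3, C1qa, C1qb and C1qc of 10 were 2-fold higher and 2 lower than in mosaic Brg1-sufficient cells, and none of 12 was higher and 7 were lower than in WT cells. All 4 Y-linked genes were higher than in both controls, and inflammation differed too. Their part in the result was not tested. The 2 controls differed from each other by at least 2-fold for S100a6 alone, 2.27-fold (2.20 to 2.33) lower in WT, where 4.2% of 10120 genes were higher and 5.13% lower (425 and 519 genes, or 538 and 406 with the authors' library totals).

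**Figure D4:**
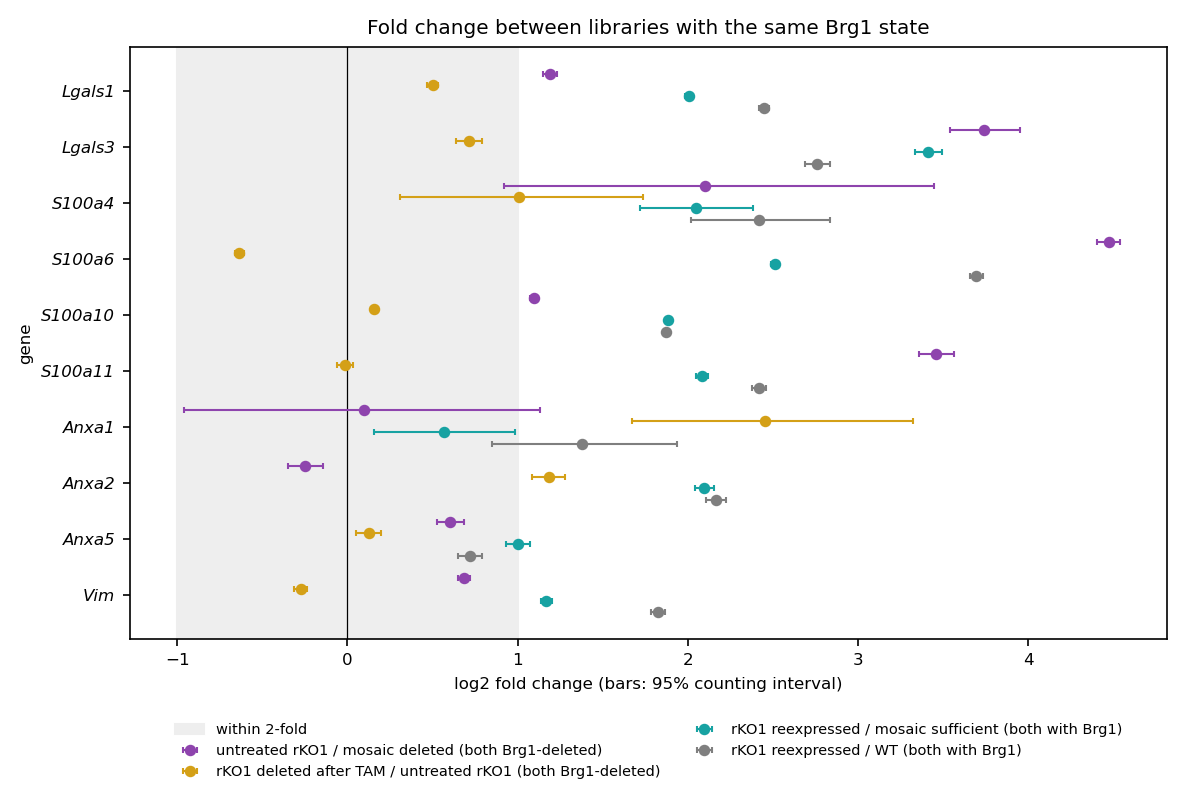
Log2 fold change of each gene between libraries that share a Brg1 state (points) with 95% exact counting intervals (bars), the grey band marking less than 2-fold. Reexpressed rKO1 cells lie beyond 2-fold of both controls for 8 genes, and S100a6 is 22.2-fold higher in untreated rKO1 than in mosaic Brg1-deleted cells.

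The rest of the 3 families did not move as a block. Of the other galectin genes at 5 CPM or more, 4 in mosaic females, Lgals4 was 2-fold lower with Brg1 and none higher, and in total rKO1 cells Lgals4 was lower and Lgalsl higher by log2 values of -1.08 and 1.05. Lgalsl was also higher in aTreg cells, by 1.59, 1 of 3. Lgals9, a ligand of T cell inhibitory receptors, stayed within 2-fold in all 3 pairs, at log2 values of 0.08, 0.29 and -0.64. Of the other S100 genes, none of 2 passed 2-fold in mosaic females, whereas in total rKO1 cells S100b (log2 2.80) and S100a3 (1.56) of 6 were higher and S100a8 (-1.29) and S100a9 (-1.06), genes of neutrophils, lower. S100a1 was 2-fold higher in aTreg cells (log2 1.54), 1 of 4. The other annexins at 5 CPM, 4 in each total Treg pair, were all within 2-fold, and in aTreg cells Anxa3 (1.76) and Anxa4 (1.06) of 5 were higher.

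Among known partners and receptors of these proteins, Itgb1, an integrin chain, was higher with Brg1 by a log2 value of 2.12 in mosaic females and 0.82 in rKO1 cells, and Lag3 by 1.95 in mosaic females, the 2 of 10 past 2-fold there. Mgat5, whose glycans galectin-3 binds, was lower in reexpressed rKO1 cells by -1.07 on the log2 scale, the only 1 of 9 past 2-fold. Ahnak, Myh9 and Cacybp, the partners of S100a10, S100a4 and S100a6, were within 2-fold in all 3 pairs. None of 9 passed in aTreg cells. Of lamina and filament genes, Lmna and Lmnb1 of 4 were higher in mosaic females (log2 1.26 and 1.32), Lmnb1 in rKO1 cells (1.51) and Lmna in aTreg cells (1.42).

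Actin cytoskeleton genes, 30 of them at 5 CPM, had a median log2 difference of 0.09 in mosaic females, with none past 2-fold. In total rKO1 cells the median was 0.61, with 7 higher in reexpressed cells (Actb, Actg1, Tmsb4x, Tagln2, Capg, Crip1 and Tpm4) and 1 lower (Actn1), led by Crip1 at 1.82. In aTreg cells Crip1 was higher by 1.70 and Actb lower by -1.05, with a median of -0.10. Memory and effector surface genes passed 2-fold in 2 of 15 cases in mosaic females (Ly6a at 4.86 and Itgb1), 3 of 15 in rKO1 cells (Itgb7, Cd48 and Ly6a, at 1.07, 1.04 and 1.40) and in none in aTreg cells. Genes of naive or resting T cells had a median log2 difference of -0.27 in mosaic females, where Il7r and Ly6c1 were among those 2-fold higher and Igfbp4 (-1.68) among those 2-fold lower with Brg1, and were 2-fold lower with Brg1 in 6 of 12 cases in total rKO1 cells (Igfbp4 at -4.70 and Bach2 at -3.29 the lowest) and in 1 of 12 in the aTreg library labelled Brg1-reexpressed (Ly6c1). Medians over these lists were below those of the 10 genes in all 3 pairs. Between untreated rKO1 and mosaic Brg1-deleted cells, which both lack Brg1, S100a1 was higher by 3.25 and S100a13 by 1.06 on the log2 scale, the 2 other S100 genes at 5 CPM. There Anxa4 and Anxa9 were higher, by 1.22 and 1.40, and Anxa11 lower by -3.19. Among the 4 other galectin genes Lgals4 was higher by 1.24 and Lgals9 lower by -2.05. Actin cytoskeleton genes were 2-fold lower in 7 of 30 cases, Actb by -3.30, and naive genes in 10 of 12, where Il7r was higher by 3.23.

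**Figure D5:**
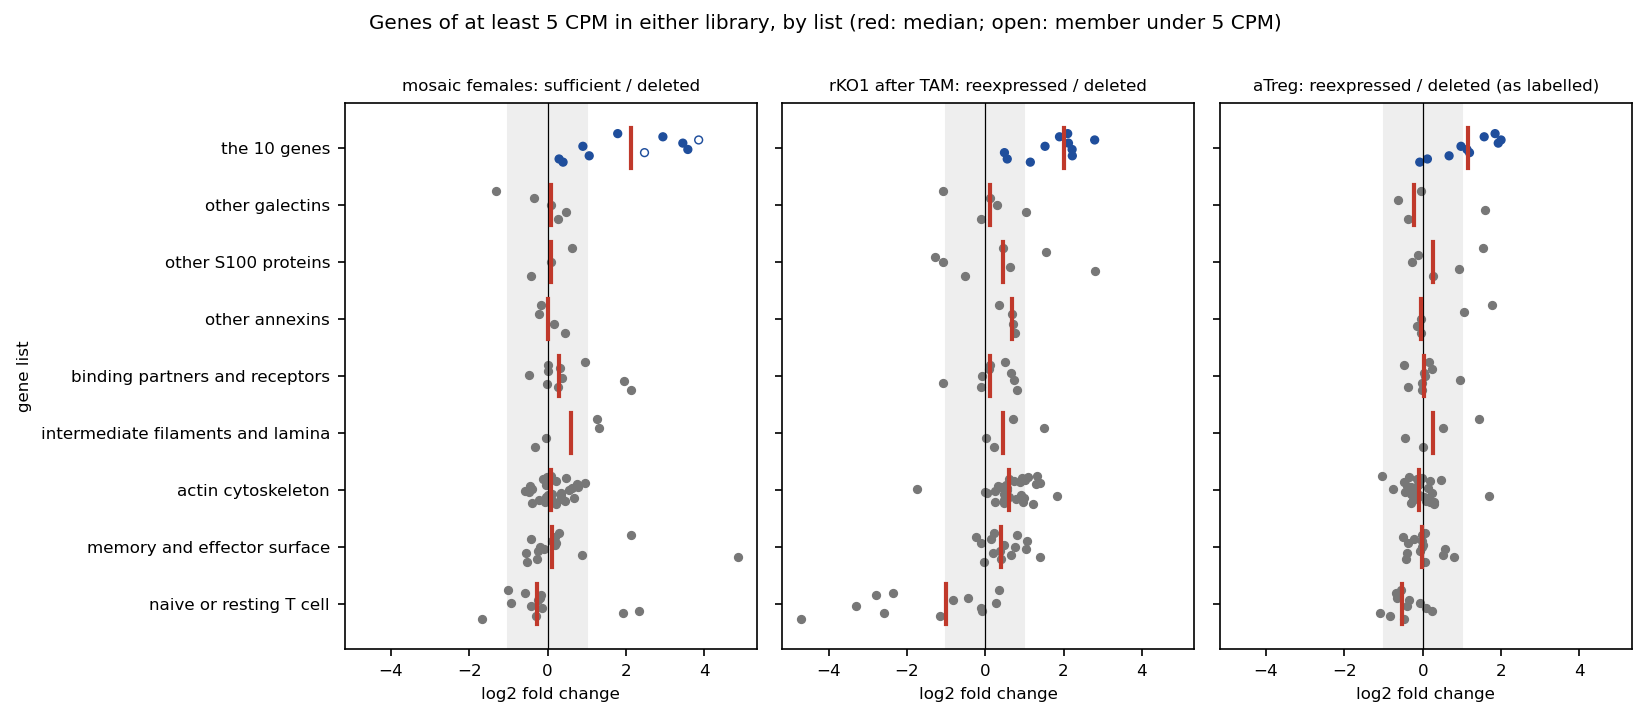
Log2 fold change in the direction of Brg1, as labelled, in 3 pairs of libraries for the 10 genes (blue, open where under 5 CPM in both libraries) and for 8 related lists (grey, genes of at least 5 CPM in either library), each point 1 gene and each red bar the list's median; the galectin and S100 lists each hold 1 gene of a binding protein as well. The median of the 10 genes is at 2.13, 2.002 and 1.16 from left to right (1.43 in mosaic females for the 8 members at 5 CPM), and that of the actin cytoskeleton list at 0.09, 0.61 and -0.10.

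Across the 6 total Treg libraries, the log2 levels of the 10 genes were positively correlated in all 45 pairs of genes, with a median Pearson r of 0.870 and a range from 0.443 (Anxa1 and Vim) to 0.974 (Lgals1 and S100a10). The neighbours S100a10 and S100a11 had an r of 0.920 and S100a4 and S100a6 0.815, within the range of pairs on different chromosomes such as Lgals3 and S100a11 (0.966). The points are 6 libraries that share the 1 reexpressed library at the top and mostly 1 at the bottom, so that these values describe that shape. Of 3121 other genes with at least 20 CPM in a library and a 2-fold range, 286 (9.16%) followed the mean profile of the 8 members at 5 CPM throughout with an r above 0.9. The closest were Hint1 (0.993), Tpst2 (0.993), Gna15 (0.992), Cd74 (0.989), Hmgn5 (0.988) and Txn1 (0.988). Of these, Gna15, a G protein subunit of blood cells, was the one past 2-fold in both total Treg pairs and in the aTreg pair as labelled, by log2 values of 1.41, 2.05 and 1.17.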

How the data were processed

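mRNA of sorted Treg cells was sequenced in 8 SMART-Seq libraries, 1 per condition. Per the labels, the authors used HISAT2 (2.0), StringTie (1.3.3b), featureCounts (1.5.0-p3) and mm10, and deposited FPKM values. Reads were recovered as FPKM × exon length (GENCODE M21) × library total, and 93.5% of 26057 genes in the total Treg and 100% of 21242 in the aTreg files came out whole within 0.05 reads, 1529 more with an estimated length, while 166 were left out. In the total Treg files, Lgals1 and Anxa1 had estimated lengths, 800 and 2608 bases where 903 and 2911 are annotated. Their reads and CPM there rest on these lengths. Anxa1 in Brg1-deleted rKO1 cells after TAM lay near the filter, at 4.57 CPM. Libraries were scaled by an own TMM within each experiment, tested on simulated data (Python 3.11.15, NumPy 2.4.6, SciPy 1.17.1). Total Treg and aTreg levels were not compared. A gene was counted in a comparison at 5 CPM or more in either library and called at 2-fold or more, with the study's limits but without its adjusted p, and with fewer than 3 reads raised to 3. In all, 10 comparisons were made and no p-value was computed. Named list genes are those at the extremes of their list or, in the 3 families, past 2-fold, and Smarca4 and the 15 genes most like the members were also fixed for naming, with others added for their role after their values were seen. The members and lists were chosen with earlier results of these data known, and the study itself picked Lgals1 and Lgals3 from these libraries. A gene of the naive list is not reported here by name.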

Additional observations from a re-analysis of the deposited data

Results flagged for a closer look

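Vim was the member whose direction differed between pairs of libraries. Its log2 difference with Brg1, as labelled, was 0.39 in mosaic females and 1.15 in total rKO1 cells, and -0.076 between the aTreg libraries as labelled, with counting intervals that exclude 0 in each. Every library pair has 1 library per side, and the difference between the pairs was not tested.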

How the results depend on the processing

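Of 1100 single-gene values under 11 alternatives, 0 reversed a called direction. Only members called in the main setting could reverse, and a changed filter or threshold leaves the values themselves as they were. Of 220 counts of members past 2-fold, 202 stayed within 1.5 times. The 18 others were as follows. For untreated rKO1 against WT, total count scaling, with or without the erythroid genes, gave 2 members higher and 0 lower in place of 1 and 1, no filter gave 3 lower, and a 1.5-fold threshold 2 higher. Against mosaic Brg1-sufficient cells, total count scaling, with or without the erythroid genes, gave 2 higher and 0 lower, no filter 3 lower, and 1.5-fold 2 higher and 2 lower. For Brg1-deleted rKO1 cells after TAM against untreated, no filter gave 3 higher and 1.5-fold 2 higher and 1 lower. For WT against mosaic Brg1-sufficient cells, 1.5-fold gave 1 higher and 2 lower. Total count scaling moved the median of all genes by up to 0.35 on the log2 scale. Relative to that median, the median of the 10 genes in reexpressed against deleted rKO1 cells ranged from 1.71 to 1.94 over all alternatives. A change of scaling shifts both medians equally and cannot alter their difference, so this range reflects the other settings only. With log2(FPKM + 1) the median in mosaic females was 1.41. The counts for the 3 pairs labelled as differing in Brg1 and for reexpressed cells against controls stayed within 1.5 times throughout. Counts over all genes moved more than those of the members. In mosaic females 404 genes were higher and 209 lower, against 1657 and 1637 with no filter, 198 and 65 at 20 CPM, 260 and 77 with log2(FPKM + 1) and 1190 and 835 at 1.5-fold. In reexpressed against deleted rKO1 cells 737 and 582 became 1843 and 2523, 407 and 181, 500 and 240, and 1764 and 1412 in the same order. Between the aTreg libraries 442 and 205 became 2025 and 1356, 145 and 53, 259 and 52, and 1051 and 942. In each of the other 7 comparisons the same 4 settings moved a count by over 1.5 times. The alternatives without the erythroid genes were chosen after seeing the data. Leaving out a replicate was not possible with 1 library per condition. No paired analysis was possible because each group has 1 library. S100a4 and Anxa1, with as few as 8 and 16 reads in a library, are limited by depth.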
